A study of Homo sapiens with 6 samples.

Results

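The genes of 3 families of RNA-binding proteins linked to m6A, IGF2BP1 to IGF2BP3, FMR1 with FXR1 and FXR2, and PRRC2A to PRRC2C, were examined for m6A peaks on their own transcripts. These 9 genes were chosen by name, and every deposited peak assigned to one of them was taken. They held 45 of 41729 peaks. Of these, 14 of 13147 came from cells given DF2 siRNA #1, 15 of 13310 from cells given DF2 siRNA #2 and 16 of 15272 from cells given control siRNA. Of the 9 genes, 8 held a peak in at least 1 list, out of 10785 gene symbols that did so in all. The cells were U2OS, a human bone osteosarcoma line of genotype WT that the labels describe as epithelial. They had received DF2 siRNA #1, DF2 siRNA #2 or control siRNA, with DF2 standing for YTHDF2, an m6A reader that promotes decay of bound RNA. Each condition had 1 library of cytoplasmic RNA fragments of about 100 nt enriched with an anti-m6A antibody and 1 input library, which makes 6 libraries in all as labelled. The deposited result was 1 peak list per condition, and each list is named as a merge of r1 and r2, which the labels do not define and which a single labelled enriched library does not account for. What a list pools is therefore not known here, and no value below has an SD and no difference could be tested against replicate error.

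m6A is a methyl mark on internal adenosines of mRNA, dense near stop codons, and its effects pass through proteins that bind the marked RNA. IGF2BP proteins bind RNA through KH domains and are known for stabilising m6A-marked mRNA and promoting its translation, and the cancer-linked targets of IGF2BP1 include the MYC mRNA. FMR1 encodes FMRP, a KH-domain protein that restrains translation in neurons and is missing in fragile X syndrome, and FXR1 and FXR2 are its autosomal relatives. PRRC2 proteins are large, proline-rich and in good part disordered. PRRC2A was described as an m6A reader in mouse oligodendrocytes, and the family takes part in translation initiation and enters stress granules.

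The PRRC2 transcripts carried peaks that all scored above the median of their list, most IGF2BP peaks scored below it, and the FMR1 family carried few peaks or none. This holds for the authors' score. By their fold enrichment or −log10 FDR, some PRRC2 peaks lay below the median of their list. The score is a whole number per peak given by the authors, and what it measures is not stated. It was read only as a percentile, the percent of peaks of the same list with a lower score, with tied peaks placed at their mean rank, and a percentile set beside that of another list measures no change in methylation. PRRC2 peaks numbered 9, 8 and 8 in the siRNA #1, siRNA #2 and control lists, with median percentiles of 92.0, 93.5 and 94.0, and 5, 5 and 7 of them lay above percentile 90. Their widths ran from 200 to 2400 bases, with medians of 600, 1000 and 800 bases beside 600 for all peaks of each list. The 5, 6 and 5 IGF2BP peaks had median percentiles of 34.5, 35.6 and 45.3. The FMR1 family had 0, 1 and 3 peaks, and none of them lay above percentile 33.3. With siRNA #1 and in control every PRRC2 peak scored above every IGF2BP peak, while with siRNA #2 the 5′ UTR peak of PRRC2B, at 58.9, lay below the 5′ peak of IGF2BP3, at 62.6.

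**Figure D1:**
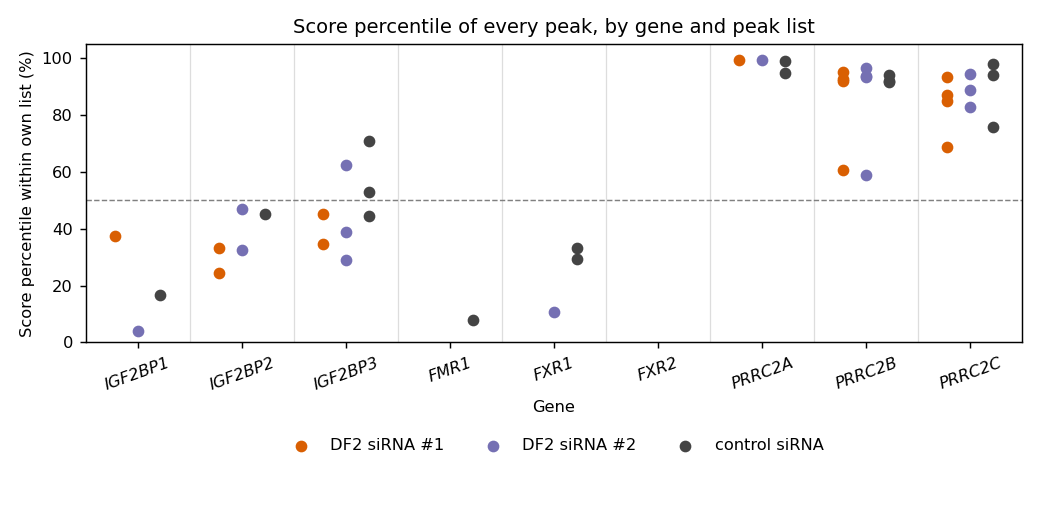
Score percentile (vertical axis, percent, within the peak's own list) of each peak of the 9 genes (horizontal axis), coloured by peak list; each point is 1 peak and the dashed line is the list median. PRRC2 points all lie above the line, from 58.9 to 99.5, and IGF2BP, FMR1 and FXR1 points lie mostly below it.

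At the level of genes, of the 8 members with a peak in any list, 6 had a peak with siRNA #1, 7 with siRNA #2 and 8 in control. Of all 10785 genes with a peak anywhere, 77.6%, 79.4% and 88.6% did so. The 6 genes with a peak in all 3 lists were the 3 IGF2BP and the 3 PRRC2 genes, and 65.4% of all genes did so. FMR1 was the member with a control peak and none with either siRNA, against 12% of all genes. FXR1 had a peak with siRNA #2 and in control and none with siRNA #1, as had 7.57% of all genes. No member had peaks under both siRNAs and none in control, which 3.55% of all genes had. FXR2 had no peak in any of the lists. A gene without a listed peak may have had enrichment below the authors' threshold or too little RNA to call it, and read depths were not used here.

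The strongest peak of a member lay above the list median in 3 of 6 members with siRNA #1, 4 of 7 with siRNA #2 and 4 of 8 in control. Among all genes with a peak in the same lists the shares were 59.6%, 59.1% and 60.3%. The median over members of the strongest percentile was 69.4, 62.6 and 58.0, beside 59.5, 58.9 and 60.1 over all genes. Over the members with a peak the medians thus lay within 10 points of those of all genes, while the families lay apart. With siRNA #1 the median was the midpoint between 45.2 for IGF2BP3 and 93.5 for PRRC2C. In control it was the midpoint between 45.3 for IGF2BP2 and 70.7 for IGF2BP3, so in these 2 lists no member stood at the median.

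PRRC2A, on the plus strand of chromosome 6, held the peaks of highest score among the members in each list. With siRNA #1 it had 1 peak, from 31630739 to 31633461 (hg38), that covered 2000 bases and stood at percentile 99.5, or rank 71. With siRNA #2 it had 1 peak, from 31631276 to 31633461, that covered 1800 bases at percentile 99.3 and rank 88. In control the same stretch was listed as 2 peaks of 800 bases each, at percentiles 94.8 and 99.1, with 200 bases between them. All 1600 control bases lay inside the siRNA peaks, and the gap was filled in both siRNA lists. The authors annotated all of these peaks as coding sequence alone, a class that held 11%, 9.33% and 7.6% of the peaks in the siRNA #1, siRNA #2 and control lists. The upstream edge lay 10024 bases from the RefSeq gene start with siRNA #1, and 10561 bases from it with siRNA #2 and in control. Fold enrichment, as the authors gave it, was 112 with siRNA #1 and 53.1 with siRNA #2, against 23.9 and 41.0 for the control peaks. The median fold of all peaks was 14.9, 18.7 and 19.1 in the siRNA #1, siRNA #2 and control lists. Here and below, a difference in fold between lists was not tested as a change in methylation.

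PRRC2B, on the plus strand of chromosome 9, had as many peaks as any other member or more, with 4 under siRNA #1, 4 under siRNA #2 and 3 in control. At least 4 peaks were found for 3.51% of genes with siRNA #1 and 3.42% with siRNA #2, and at least 3 for 13.3% in control. Its internal peak ended at 131477917 in every list and covered 2400, 2400 and 2200 bases, which put it at width percentiles of 98.8, 98.5 and 96.8 with siRNA #1, with siRNA #2 and in control. Both siRNA lists placed its upstream edge at 131473581, against 131474510 in control, where the block of 144 bases farthest upstream was not listed. The authors annotated it as coding sequence with a stop codon, although it ended 22276 bases before the RefSeq end of the gene, and the transcript behind this stop codon is not named in the list. The 2 downstream peaks were found in every list. The first, from 131494452, covered 600, 800 and 600 bases of coding sequence, stop codon and 3′ UTR. The last lay in the 3′ UTR, ended at 131500104, which is 89 bases short of the gene end, and covered 800, 1200 and 800 bases. Their percentiles ran from 92.0 to 93.8 across both siRNA lists, beside 92.0 and 94.0 in control, so all of them lay above percentile 90 of their list.

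A 5′ UTR peak of PRRC2B was listed with both siRNAs and not in control. It had the same edges in both, 131394093 to 131430118, and covered 200 bases in 2 blocks of 171 and 29 bases joined across an intron. Its percentile was 60.6 with siRNA #1 and 58.9 with siRNA #2, and its fold was 17.7 and 10.7. The −log10 FDR was 4.78 with siRNA #1 and 1.32 with siRNA #2, where it lay just past the deposited threshold of 0.05. With an FDR under 0.01 asked for, the peak remained with siRNA #1 alone. Among all regions, 5.25% were found with both siRNAs and not in control. The peak opened 7 bases after a RefSeq transcript start, but 20442 bases after the RefSeq start of the gene. IGF2BP3 with siRNA #2 had a peak that opened 24 bases after its start. An edge is known to a 200-base bin at best, so the distances of 7 and 24 bases are nominal. These PRRC2B and IGF2BP3 peaks are the only member peaks that reach a RefSeq window around a start. The stretches shared by peak and window (GRCh38.p14, sense strand, at most 30 bases) are therefore shown, the whole of it for IGF2BP3 and the last 30 of 43 bases for PRRC2B.
PRRC2B, chr9:131394106-131394135, plus strand: accgcgcagcGACgagcgagcccgggagga
IGF2BP3, chr7:23470442-23470467, minus strand: ggccgaagccaaaggggttgggaagg
Both were searched on both strands for GGACT, the most frequent form of the m6A consensus, and for its shorter core, AAC or GAC, which GGACT contains. Capitals mark a core on the printed strand. PRRC2B held 1 core and IGF2BP3 none on that strand, IGF2BP3 held 1 on the opposite strand, and GGACT was found in neither. In the last 30 bases of 35116 RefSeq windows, a core stood on the sense strand in 47.3%, on the opposite strand in 48.2% and on either in 75.1%. In the last 26 bases these shares were 42.3%, 44.3% and 70.5%. GGACT stood on either strand in 5.30% for 30 bases and 4.58% for 26 bases. These matches describe the letters shown, and the rest of each peak was not read.

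**Figure D2:**
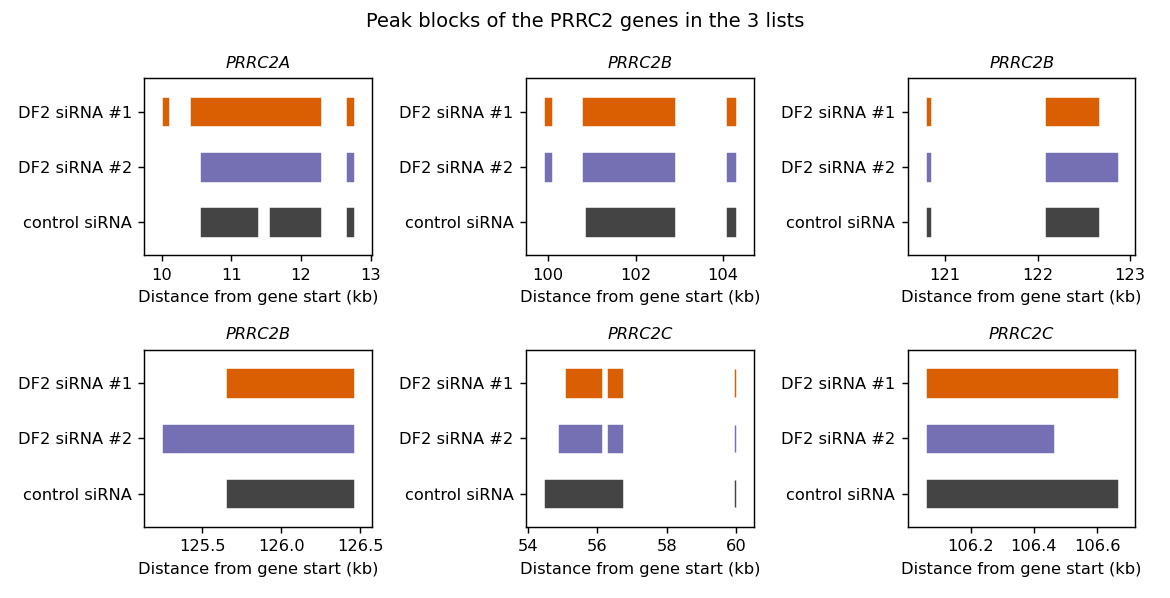
Covered blocks of 6 PRRC2 regions, drawn to scale by distance from the RefSeq gene start (horizontal axis, kb) with the siRNA #1, siRNA #2 and control lists from top to bottom. The blocks share most edges, the control list has a gap in PRRC2A, and both siRNA lists have a gap in PRRC2C where the control block is unbroken.

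PRRC2C, on the plus strand of chromosome 1, showed the opposite arrangement in its largest peak. Both siRNA lists held 2 coding peaks there, of 1000 and 400 bases with siRNA #1 and of 1200 and 400 bases with siRNA #2, against 1 control peak of 2200 bases between 171540032 and 171545480. The percentiles were 93.5 and 87.0 with siRNA #1 and 94.3 and 82.9 with siRNA #2, against 97.8 for the control peak. The smaller siRNA #2 peak had a fold of 12.5 and a −log10 FDR of 1.60, which did not pass an FDR under 0.01. The smaller siRNA #1 peak, with a −log10 FDR of 5.22, passed it. All bases of the siRNA peaks lay inside the control peak, and the bases in common to the 3 lists numbered 1400.

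The stop codon peak near the PRRC2C gene end was listed in every condition. It started at 171591591, covered 600, 400 and 600 bases with siRNA #1, with siRNA #2 and in control, and stood at percentiles 85.0, 88.8 and 94.0. A second peak annotated with a stop codon, from 171532654 to 171535519, was listed with siRNA #1 and in control with the same edges and was absent with siRNA #2. It ended 57992 bases before the gene end, covered 400 bases and had a fold of 14.4 with siRNA #1 and 12.3 in control. Its −log10 FDR was 3.82 with siRNA #1 and 1.79 in control, so an FDR under 0.01 left it with siRNA #1 alone. Of all regions, 3.46% were found with siRNA #1 and in control and not with siRNA #2.

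The bases covered by the 3 PRRC2 genes came to 8400 in each list, with a different division between genes. PRRC2A covered 2000, 1800 and 1600 bases with siRNA #1, with siRNA #2 and in control. PRRC2B covered 4000, 4600 and 3600 bases, and in those lists 1.60%, 1.13% and 3.93% of genes covered as much. PRRC2C covered 2400, 2000 and 3200 bases. PRRC2A and PRRC2B were thus wider in both siRNA lists and PRRC2C in the control list, by steps of the 200-base bins. Widths divisible by 200 made up 92.7%, 90.4% and 86.7% of all peaks, so an edge is known to a bin at best.

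**Figure D3:**
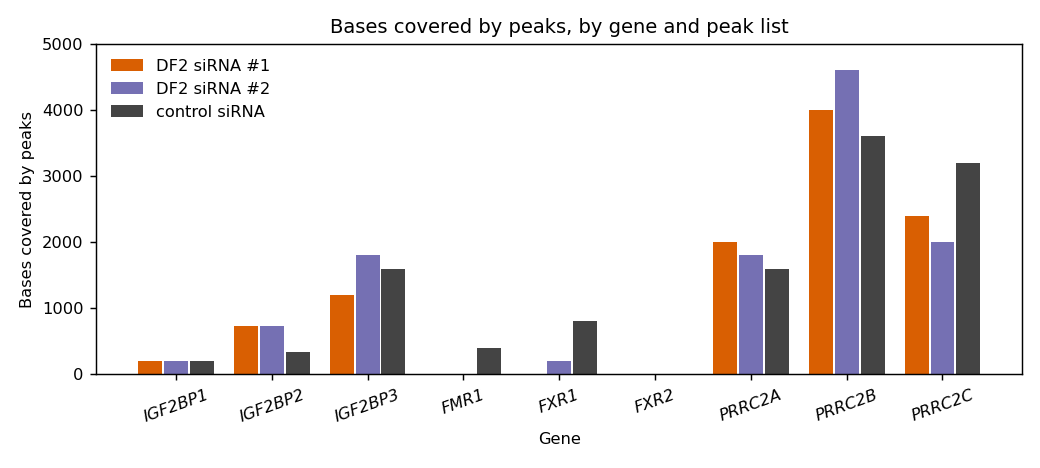
Bases covered by all peaks of a gene (vertical axis, from 0) for the 9 genes, with 1 bar per peak list. PRRC2B has the tallest bars, 4000, 4600 and 3600 bases for siRNA #1, siRNA #2 and control; FXR2 has no bar, FMR1 has a bar in control only, and FXR1 has bars with siRNA #2 and in control.

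IGF2BP3, on the minus strand of chromosome 7, had 2 peaks under siRNA #1, as had IGF2BP2, and more than the other IGF2BP genes with 3 under siRNA #2 and 3 in control. Its 5′ peak covered 5′ UTR and coding sequence from 23469435, and its upstream edge lay at 23470267 with siRNA #1, at 23470467 with siRNA #2 and at 23470267 in control. The percentiles of this peak were 45.2, 62.6 and 70.7. A coding peak of 200 bases just downstream, from 23467787 to 23468541, was listed with siRNA #2 and in control with the same edges and not with siRNA #1. Its −log10 FDR was 2.41 with siRNA #2 and 1.56 in control.

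The other IGF2BP3 peak lay inside the gene, 55036 bases from the start, and was given no transcript part by the authors. It covered 800 bases with siRNA #1 and 1000 bases with siRNA #2 and in control, and 800 bases were common to all 3 lists. Peaks without a transcript part made up 1.31%, 2.17% and 2.78% of the lists. Its rank differed by measure more than that of any other member peak whose fold percentile was the higher of the 2. The fold was 18.7, 27.4 and 64.6, at fold percentiles 58.7, 65.8 and 94.1, while its score percentiles were 34.5, 29.0 and 44.6. The −log10 FDR was 17.5, 14.6 and 27.6. A fold percentile at least 40 points above the score percentile was found for this peak in control, and for 1.93% of all control peaks.

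IGF2BP2, on the minus strand of chromosome 3, had peaks in its 3′ UTR in every list. The downstream one, from 185643739 to 185644073, covered the same 335 bases in all 3 lists, 609 bases before the gene end. It had fold values of 10.3, 13.0 and 27.5 and score percentiles of 24.6, 32.4 and 45.3 with siRNA #1, with siRNA #2 and in control. A second 3′ UTR peak, from 185645074 to 185645473, covered the same 400 bases in both siRNA lists and was not listed in control. Its percentiles were 33.1 and 47.0 and its fold values 10.1 and 11.5 with siRNA #1 and siRNA #2. Its −log10 FDR was 2.68 with siRNA #1 and 1.82 with siRNA #2, so an FDR under 0.01 left it in the siRNA #1 list alone.

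IGF2BP1, on the plus strand of chromosome 17, had 1 peak of 200 bases in each list, at 2 different places. With siRNA #1 it lay in the 5′ UTR, from 48997412 to 48997611, which is 854 bases from the gene start. With siRNA #2 and in control it lay from 49036564 to 49036763, which is 40006 bases from the start, and had no transcript part. The fold was 10.4 with siRNA #1, 5.33 with siRNA #2 and 7.76 in control. The percentiles, 37.3, 3.98 and 16.8, had a wider range over the lists than those of any other member with peaks in all 3, and the siRNA #2 and control peaks had −log10 FDR values of 1.48 and 1.40. With an FDR under 0.01 asked for, IGF2BP1 had a peak with siRNA #1 alone, and the members with a peak in all 3 lists numbered 5 in place of 6. The RefSeq window table used here held no entry for this gene.

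FXR1, on the plus strand of chromosome 3, had no peak with siRNA #1, 1 with siRNA #2 and 2 in control. The 5′ UTR peak, from 180914776 to 180914975, covered the same 200 bases with siRNA #2 and in control. Its percentile was 10.8 and its fold 6.81 with siRNA #2, against 29.4 and 14.0 in control. With siRNA #2 its −log10 FDR was 1.45, which did not pass an FDR under 0.01, and with that threshold FXR1 joined FMR1 among the genes with a control peak alone. The 3′ UTR peak, from 180979100 to 180979699, was listed in control alone, covered 600 bases and had a fold of 19.6 and a percentile of 33.3.

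FMR1, on the plus strand of chromosome X, had 1 peak, in control, from 147912848 to 147913247. It covered 400 bases with a fold of 7.71, a −log10 FDR of 3.94 and a score of 8, at percentile 8.03. The authors annotated it as 3′ UTR, but it began 929 bases from the RefSeq gene start and ended 37878 bases before the gene end. The transcript behind that annotation is not named in the list. With the same number of top peaks by score taken from each list the FMR1 peak was no longer included.

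**Figure D4:**
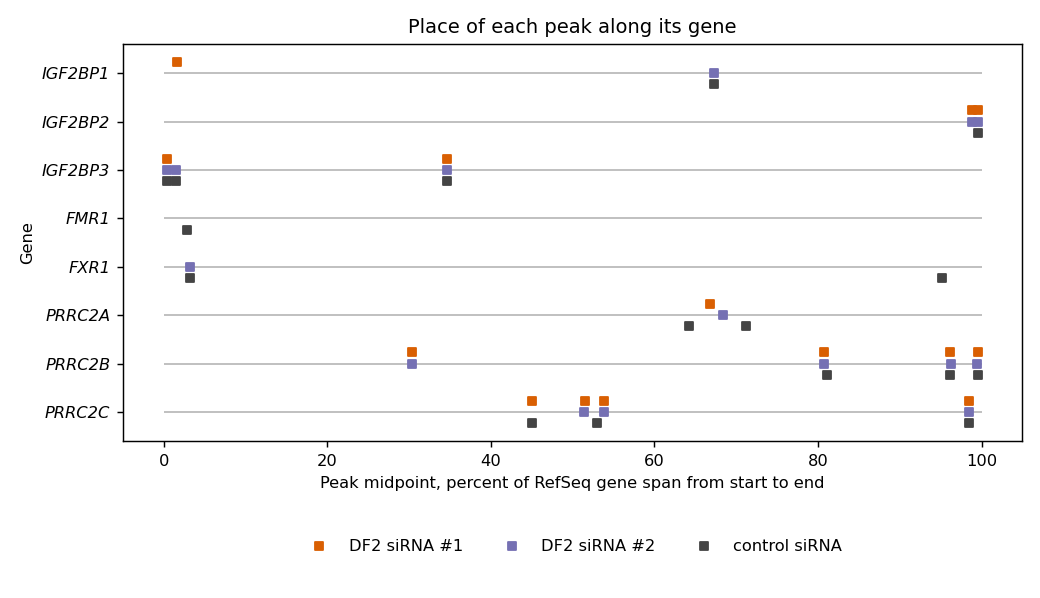
Midpoint of each peak as a percent of the RefSeq span of its gene, from start to end (horizontal axis), for the 8 genes with a peak, with the siRNA #1, siRNA #2 and control lists from top to bottom within a gene. IGF2BP2 peaks lie at the gene end, FMR1 and IGF2BP3 peaks lie toward the start or inside, and PRRC2A peaks lie in the middle part.

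Peaks that included a stop codon were all in PRRC2B and PRRC2C. They numbered 4 of 14 with siRNA #1, 3 of 15 with siRNA #2 and 4 of 16 in control, beside 43.5%, 43.7% and 42.9% of all peaks. Counted here was the internal PRRC2B peak of each list, which ended 22276 bases before the gene end. The internal PRRC2C peak with siRNA #1 and in control, which ended 57992 bases before it, was counted too. The exact binomial intervals (95%, counting error only, treating peaks of 1 gene as separate) were 8.39 to 58.1%, 4.33 to 48.1% and 7.27 to 52.4%, so at this number of peaks no difference from the whole lists was detectable. Coding peaks numbered 3, 4 and 4, from PRRC2A and PRRC2C in each list and from IGF2BP3 with siRNA #2 and in control. Neighbouring peaks of 1 stretch counted as 2, in PRRC2A in control and in PRRC2C with each siRNA. The interval was 4.66 to 50.8% with siRNA #1, 7.79 to 55.1% with siRNA #2 and 7.27 to 52.4% in control, and the list shares of 11%, 9.33% and 7.6% lay inside each. The 5′ UTR class held 3, 3 and 2 member peaks, beside 18.9%, 16.6% and 14.4% of all peaks, and the 3′ UTR class 3, 3 and 4, beside 17.1%, 17.1% and 19.1%. The 3′ UTR peaks in control included that of FMR1, which began 929 bases from the gene start. No member peak was annotated as non-coding RNA alone, a class with 7.61%, 10.6% and 12.6% of all peaks.

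Peaks of 2 lists were counted as overlapping when at least 1 base of their blocks was in common on the same strand. With siRNA #1, 12 of 14 member peaks overlapped the siRNA #2 list and 11 of 14 the control list, beside 83.6% and 81.5% of all siRNA #1 peaks. With siRNA #2, 12 of 15 overlapped the siRNA #1 list and 13 of 15 the control list, beside 80.5% and 86.1%. Of the 16 control peaks, 11 overlapped the siRNA #1 list and 13 the siRNA #2 list, beside 67.1% and 73.4%. The members' shares were near those of all peaks. With overlapping peaks joined and peaks without overlap kept as they were, there were 18 regions. Of these, 9 were found in all 3 lists, beside 50.8% of all regions. No peak of another gene shared a base with a member peak on either strand.

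Families were also counted apart, beside all control peaks of similar score, and whether they differed beyond score was not tested. All 8 PRRC2 control peaks overlapped the siRNA #1 list and 7 the siRNA #2 list, all 8 having a score percentile above 75, and 98.1% and 95.6% of all control peaks above that percentile did so. Of 5 IGF2BP control peaks, 3 overlapped the siRNA #1 list and 5 the siRNA #2 list. Of 3 FMR1 and FXR1 control peaks, 0 and 1 did so. Control peaks at or under percentile 50, where the FMR1 and FXR1 peaks and 3 of the IGF2BP peaks lay, overlapped the siRNA #1 list in 41.3% and the siRNA #2 list in 55.3% of cases. No such share was computed for the other 2 IGF2BP peaks, at percentiles 52.8 and 70.7.

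Ranking by fold enrichment in place of score brought the medians of the PRRC2 and IGF2BP peaks closer together. PRRC2 peaks had median fold percentiles of 79.4, 69.1 and 65.9 and IGF2BP peaks of 33.8, 33.2 and 46.9 in the siRNA #1, siRNA #2 and control lists. The lowest PRRC2 peak stood at fold percentile 48.8, 22.1 and 29.9 in those lists, below the median of each. The FMR1 family had a median fold percentile of 7.25 with siRNA #2 and 36.2 in control. The strongest control peak of FXR1 stood at fold percentile 50.7, against 33.3 by score. The fold percentile of a PRRC2 peak was below its score percentile in 7 of 9, 8 of 8 and 8 of 8 cases. In the control list, where the 3 highest member folds were 64.6 for IGF2BP3, 56.8 for PRRC2B and 41.0 for PRRC2A, an IGF2BP3 peak then led the members.

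Ranking by −log10 FDR moved single peaks further. The medians were 69.4, 57.5 and 55.6 for PRRC2 peaks and 29.1, 25.1 and 36.1 for IGF2BP peaks in the siRNA #1, siRNA #2 and control lists. The lowest PRRC2 peak stood at FDR percentile 41.0, 0.560 and 14.9 in those lists, again below the median of each. The FMR1 family had medians of 4.43 with siRNA #2 and 42.8 in control, where FXR1 reached 51.9. The inner IGF2BP3 peak stood at FDR percentiles of 85.8, 87.2 and 98.9, and in control it lay above every PRRC2 peak, the highest of which was at 86.4. The order of PRRC2 peaks above IGF2BP peaks therefore held for the family medians under each ranking, not for single peaks. Across all peaks of a list, score and fold had a Spearman correlation of 0.93, 0.82 and 0.77, over peaks that share a library.

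**Figure D5:**
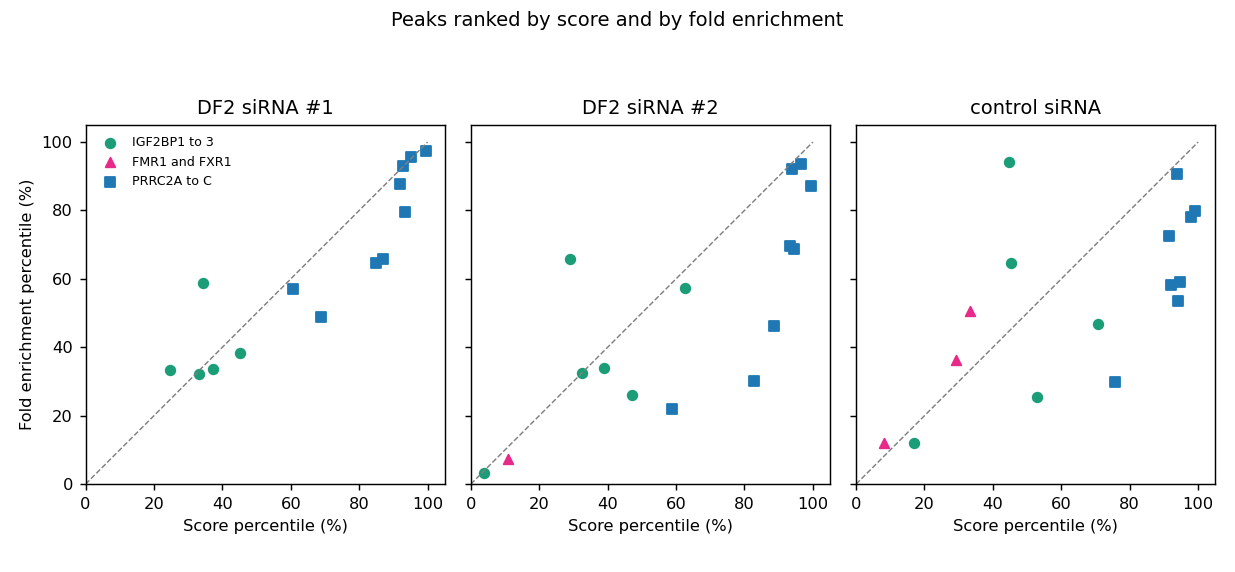
Score percentile (horizontal axis) against fold enrichment percentile (vertical axis) of each member peak in the siRNA #1, siRNA #2 and control lists from left to right, coloured by family; the dashed line marks equal percentiles. PRRC2 points lie mostly below the line, and the IGF2BP3 peak without a transcript part lies highest above it, at 44.6 and 94.1 in control.

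Other m6A readers and partners of these proteins were compared through a list of 22 genes, of which 16 had a peak in at least 1 list. Of these 16, 15 had a peak with siRNA #1, 11 with siRNA #2 and 12 in control, beside 77.6%, 79.4% and 88.6% of all genes, and 10 had one in all 3 lists, beside 65.4%. YTHDF2, the gene that the siRNAs target, had 1 peak in each list, at percentiles 84.3, 66.6 and 99.1 with siRNA #1, with siRNA #2 and in control. Its paralogs stood at 94.0, 96.9 and 95.5 for YTHDF1 and at 92.0, 94.9 and 94.5 for YTHDF3, and the nuclear reader YTHDC1 at 37.3, 48.2 and 38.8. HNRNPA2B1 and HNRNPC, nuclear RNA-binding proteins, had a peak with siRNA #1 alone, at 16.3 and 8.66, and RBMX, another nuclear one, with siRNA #1 and in control, at 79.6 and 92.7. None had a control peak and no siRNA peak, and none had a peak with both siRNAs and not in control, beside the 12% and 3.55% of all genes. USP10, a deubiquitinase of stress granules, stood at percentile 99.0, 99.3 and 99.0, and NUFIP2, an FMRP partner, at 95.9, 96.5 and 98.2. G3BP2, a stress granule scaffold, stood at 80.7, 80.3 and 98.0, and its relative G3BP1 had a peak with siRNA #1 and in control, at 80.3 and 87.3, and none with siRNA #2. MATR3, a nuclear matrix protein and reported cofactor of IGF2BP proteins, stood at 89.0, 94.0 and 94.7. EIF4G2, an initiation factor, had a peak with siRNA #1 alone, at 75.2, and CAPRIN1, which binds FMRP and G3BP1, with siRNA #2 alone, at 10.8. UBAP2L, a stress granule protein, stood at 53.5, 56.5 and 53.0, and TNRC6A, a scaffold of miRNA silencing, at 77.0, 66.8 and 88.1. YTHDC2, ELAVL1, PABPC1, CYFIP1, CYFIP2 and LIN28B had no peak in any list.

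Of the members with peaks in all 3 lists, IGF2BP1 had the percentiles that varied most, although its siRNA #1 peak lay at another place than its siRNA #2 and control peaks. The genes nearest to IGF2BP1 were sought among the 7053 genes with a peak in every list. By Euclidean distance over the 3 within-list percentiles of the strongest peak, these were PNPLA2, SF3A3 and TBCD, at distances of 6.56, 7.14 and 8.58 percentile points. PNPLA2 stood at 35.9, 9.57 and 13.7, SF3A3 at 38.6, 10.8 and 18.3, and TBCD at 34.5, 12.0 and 15.4 with siRNA #1, with siRNA #2 and in control.

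The lists measure no RNA level, so the labelled cell type could not be checked from them. Which marker transcripts carried a peak is given only as a description, and a marker without a peak may still have been expressed. Of 7 mesenchymal and bone markers, COL1A1 and RUNX2 had peaks in all 3 lists and VIM with siRNA #1 alone, while CDH2, FN1, COL1A2 and SPARC had none. Of 5 epithelial markers, KRT8 had a peak with siRNA #1 and siRNA #2, and EPCAM, CDH1, KRT18 and KRT19 had none. The lists differed in length and in the scale of the score, with median scores of 33, 99 and 158 for siRNA #1, siRNA #2 and control, and the part of these differences in the presence or absence of a member peak was not tested.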

How the data were processed

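Cytoplasmic RNA fragments of U2OS cells were sequenced before and after m6A-IP in 3 conditions. Per the submitters' processing notes, HISAT2 and hg38 were used; the sources used here do not give the peak caller, the annotation release or what r1 and r2 stand for or how they were merged. The deposited score of each peak is a whole number without a stated definition. The fold enrichment is a ratio given by the authors, and the −log10 FDR is theirs too, per the file headers. Every deposited peak had an FDR under 0.05. Depth is unknown, so precision is that of the number of peaks.

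Peaks were split into their blocks, with block sizes reversed on the minus strand, after which 100% of block ends matched the peak ends. Starts were raised by 1. Percentiles count ties by their mean rank. Region classes followed the authors' annotation, with the stop codon first, then the single UTR touched, then coding sequence alone. Member genes were taken by the symbol in the files; IMP3, an older name of IGF2BP3, is the current symbol of another gene and was not counted. RefSeq (GRCh38.p14) gave gene spans, and its start windows matched 8 of the 9 genes. Overlap code was tested on simulated data. Members, gene lists and alternatives were chosen with earlier results of these data known: all 9 members are named with every peak, partner genes by their calls, and the nearest genes by distance. Intervals are Clopper-Pearson. Python 3.11.15, pandas 2.3.3 and SciPy 1.17.1 were used. No p-value was computed.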

Additional observations from a re-analysis of the deposited data

How the results depend on the processing

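Of 100 recomputed counts, 85 stayed within 1.5 times of the main count and 15 did not. Some of the 85 could not move. Coding counts without peaks of several parts were fixed, because that class already meant coding sequence alone. Counts within the siRNA #1 list were fixed with the same number of top peaks, because that list was the shortest. No paired analysis was possible because each condition has 1 merged list and no result comes from a test. Among peaks in the upper 50% of scores, member peaks numbered 9 with siRNA #1, 9 with siRNA #2 and 10 in control, in 3, 4 and 4 members, with 3 members in all lists. Overlaps of siRNA #2 peaks with control and of control peaks with siRNA #2 then both numbered 8, and 0 members had a control peak alone. That last count was also 0 with the same number of top peaks by score and was 2, FMR1 and FXR1, with an FDR under 0.01. If peaks of several transcript parts are set aside, stop codon peaks number 0 in each list. These 3 counts, part of the 15, follow from the definition, since every member peak with a stop codon also touched coding sequence or 3′ UTR. They say nothing about how stable the stop codon counts are. Asking for at least 50% of each peak in common, allowing gaps of up to 100 bases or updating symbols moved no count past 1.5 times. An FDR under 0.01 left 5 members in all lists. The median over members of the strongest percentile was 65.8 (siRNA #2) and 71.4 (control) by fold, and 77.6 (siRNA #1), 56.7 (siRNA #2) and 66.4 (control) by −log10 FDR; by fold it was 69.0 with siRNA #1, against 69.4 by score. Of 21 strongest percentiles of single genes, 10 shifted by at least 10 points by fold and 15 by −log10 FDR, and 2 and 10 by at least 20 points. By −log10 FDR IGF2BP3 with siRNA #1 stood at 85.8 in place of 45.2, PRRC2C with siRNA #2 at 56.7 in place of 94.3 and FMR1 in control at 42.8 in place of 8.03. The small number of peaks and the single list per condition limit every count.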
